A study of Mus musculus with 24 samples.

Results

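The comparison described here is the third day of RANKL against the second in osteoclast precursor cultures from STING-deficient (KO) mice. It uses 6 of the 24 RNA-seq libraries of the series: 3 KO day 3 libraries and 3 KO day 2 libraries, paired by mouse (481, 528 and 532). All cultures came from marrow of female mice aged 10 to 12 weeks, which was expanded for 72 hours in mCSF (40 ng/mL), the growth factor of the macrophage lineage. The cells were replated at 25000 per well, and both days had received RANKL (10 ng/mL), the cytokine that commits them to the osteoclast lineage, together with mCSF (20 ng/mL). Each library holds RNA pooled from several wells of 1 mouse. Part of the medium was replaced with fresh mCSF and RANKL at day 2, so another day in culture and the medium change cannot be told apart. The KO mice lack STING at both days, how the gene was disrupted is not stated in the labels, and WT cultures of mice 480, 529 and 531 at the same days are used only to set the KO values beside. Values are FPKM, a fragment density scaled for transcript length and library size, which lets the levels of genes be set side by side. Each value is relative to the rest of its library, so small differences between libraries depend on that scaling. Differences are given on the scale of log2(FPKM + 1), which understates the change of low genes, as day 3 minus day 2 within a mouse, with the standard error (SE) of a limma fit over all genes (n = 3 mice), and are written as value ± SE. Where 3 values are given for a day, they are those of mice 481, 528 and 532 in KO and of mice 480, 529 and 531 in WT, in that order.

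Osteoclasts form when monocyte-lineage precursors leave the cell cycle, fuse with each other and assemble a bone-resorbing surface. Fusion depends on membrane proteins such as DC-STAMP and OC-STAMP, and resorption on acid pumped across a ruffled border, on cathepsin K and on matrix metalloproteinases, inside a ring of actin and integrins that seals the cell to bone. RANKL drives the programme through RANK, NF-kB, AP-1 and NFATc1. Cells on plastic have no bone to resorb, and fusion itself was not measured in these libraries: the text below is about the RNA of genes known for it.

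The targeted gene, Sting1 (listed as Tmem173), the adaptor between cytosolic DNA sensing and type I interferon, had 3.76, 3.79 and 3.19 FPKM at day 3, against 3.699, 3.41 and 3.37 FPKM at day 2 in the KO mice. The WT libraries had 4.03, 4.69 and 4.58 FPKM at WT day 3, against 5.28, 6.15 and 7.35 FPKM at WT day 2. The KO libraries were all below the WT libraries at both days, and within KO the days overlapped (a log2 difference of 0.03 ± 0.06 SE, limma adjusted p = 0.749). Reads from any part of the gene that the disruption leaves would still count. Osteoclast markers were high in all 6 KO libraries, with Acp5 at 3627 FPKM or more and Ctsk at 2832 FPKM or more at both days. Summed FPKM ran from 492243 to 530196 at day 3, against 463082 to 486316 at day 2, while the median gene stood at 10.3 to 10.6 FPKM at day 3 and 10.4 to 10.5 FPKM at day 2. Read numbers per library are unknown, so no counting interval can be set.

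Of the 9408 genes with a mean of at least 1 FPKM at either day, 5853 (62.2%) passed an adjusted p of 0.05 in limma: 3004 rose (31.9%) and 2849 fell (30.3%). The changes were mostly small. Among the called genes, 907 rose and 998 fell by less than 0.25 on the log2 scale, 1282 rose and 1299 fell by 0.25 to 0.5, and 662 rose and 541 fell by 0.5 to 1. Large changes were nearly all rises: 153 genes (1.63%) rose by 1 or more and 11 (0.117%) fell by 1 or more. With a pseudocount of 0.1 in place of 1 these counts were 268 and 36. The day 3 and day 2 libraries did not overlap for 5301 genes (56.3%), and 7428 genes (79.0%) moved the same way in all 3 mice. A fit without the mouse over all 24 libraries of the series called 1723 rises and 1400 falls. The number of large falls was 36 without mouse 481 and 5 without mouse 532. Since 62.2% of all genes were called, a list with a share near that is not set apart by it, and the direction and the median of each list are given beside the median of all genes tested, 0.0012. In bulk RNA, fewer cells of a type and less RNA per cell cannot be told apart.

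**Figure D1:**
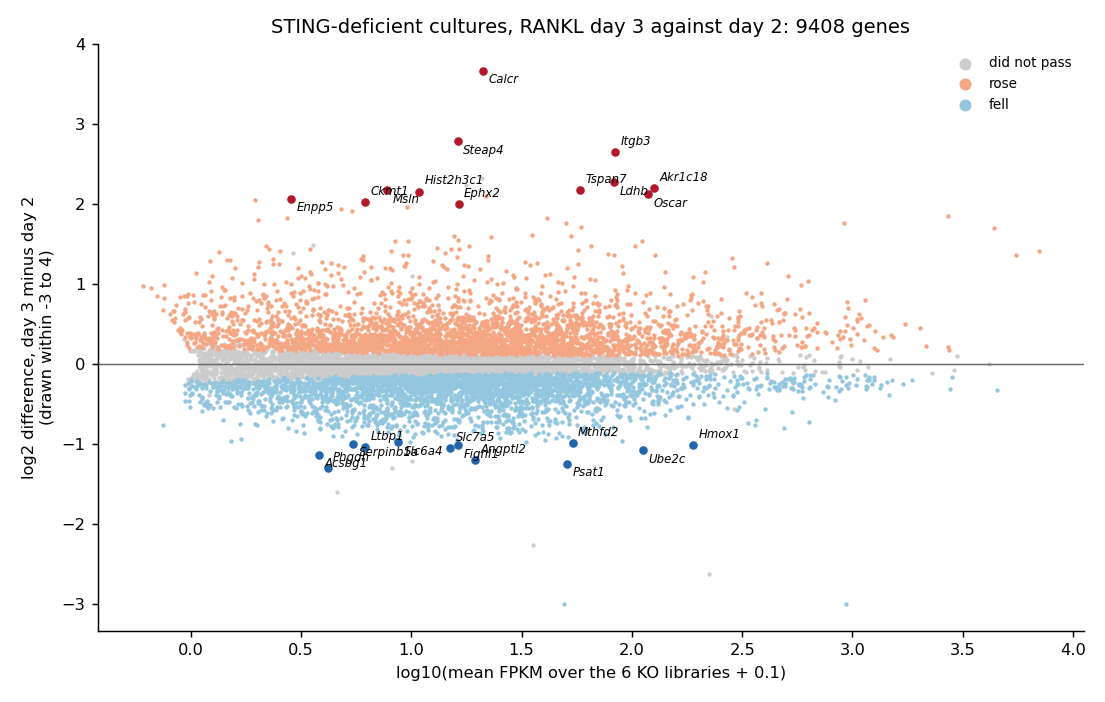
Log2 difference (day 3 minus day 2, KO) against the mean FPKM of the 6 KO libraries on a log10 axis, for the 9408 genes tested. Each point is a gene, coloured by whether it rose, fell or did not pass; the 12 largest rises and 12 largest falls among well-expressed genes are named, with Calcr highest at a log2 difference of 3.67 and Phgdh lowest of those named at -1.30. Points beyond the vertical axis are drawn at its edge.

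The largest rise among genes with at least 5 FPKM was Calcr (chr6:3685678-3764713 in GRCm38), the calcitonin receptor, a marker of mature osteoclasts. It had 32.8, 39.5 and 47.02 FPKM at day 3, against 3.63, 1.37 and 1.905 FPKM at day 2. The lowest day 3 library was thus many times above the highest day 2 library, and the log2 difference was 3.67 ± 0.22 SE (limma adjusted p = 6.51e-05). Calcr went on to 91.6 to 117 FPKM at day 4. Itgb3 (chr11:104608000-104670476), the beta 3 subunit of the vitronectin receptor with which osteoclasts hold on to bone, had 145, 138 and 152 FPKM at day 3, against 33.7, 19.1 and 16.7 FPKM at day 2, a difference of 2.65 ± 0.17. Oscar, an immune receptor of osteoclasts that binds collagen, had 168, 189 and 224 FPKM at day 3, against 51.9, 36.7 and 42.7 FPKM at day 2, a difference of 2.12 ± 0.12. For both genes every day 3 library was far above every day 2 library.

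The other 9 of the 12 largest rises were of several kinds. Steap4, a metalloreductase that handles iron and copper, rose by 2.79, and Ldhb, the lactate dehydrogenase subunit that favours lactate use, by 2.27 on the log2 scale. Ldhb had 128, 159 and 127 FPKM at day 3, against 35.6, 26.5 and 22.2 FPKM at day 2. Ckmt1, a mitochondrial creatine kinase, rose by 2.03. Akr1c18, an aldo-keto reductase that inactivates progesterone, rose by 2.202, Tspan7, a tetraspanin linked to the osteoclast cytoskeleton, by 2.18, and Ephx2, the soluble epoxide hydrolase, by 2.00. Msln, which encodes mesothelin, rose by 2.17 and Enpp5, of the ectonucleotide pyrophosphatase family, by 2.07. The last was Hist2h3c1, a histone H3 gene at 2.16, which has near-identical copies, so its value is uncertain.

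**Figure D2:**
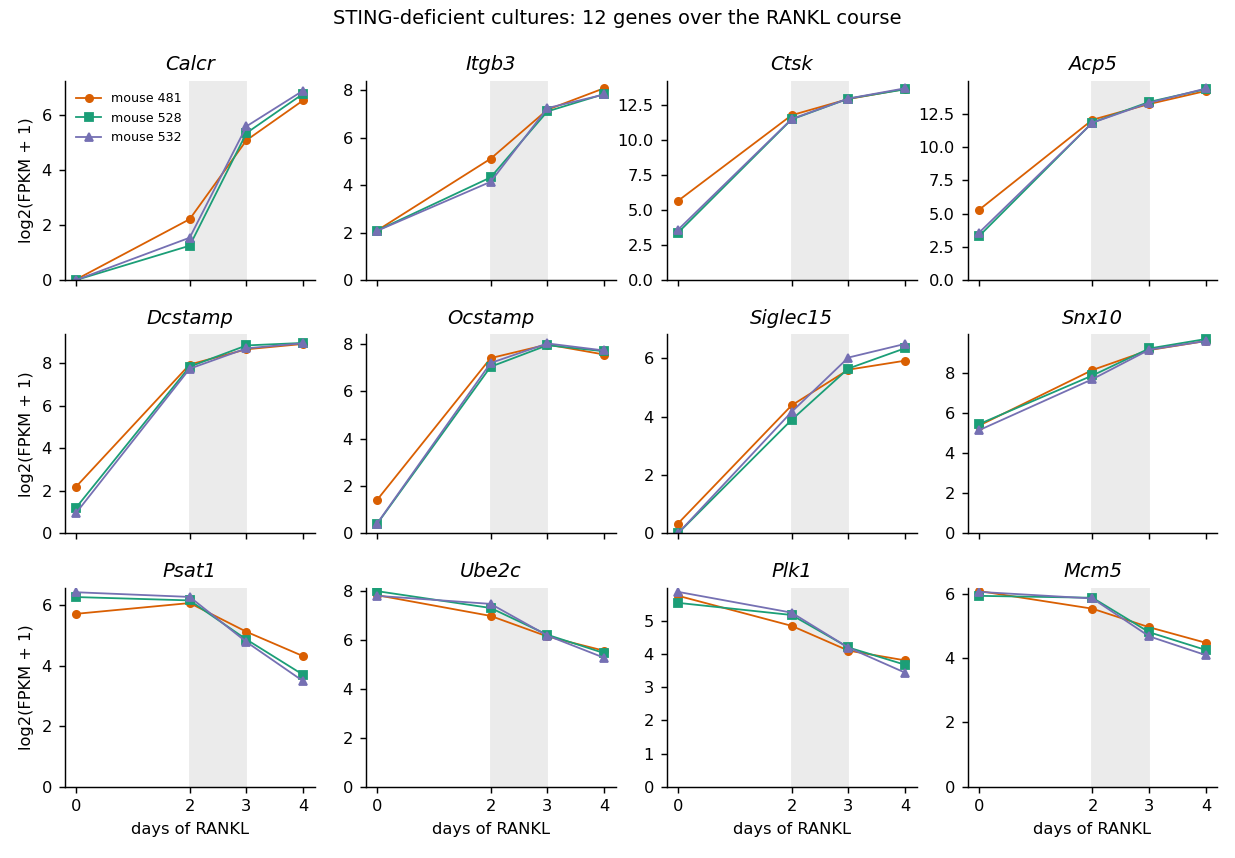
Log2(FPKM + 1) of 12 genes in KO cultures at days 0, 2, 3 and 4 of RANKL, 1 line for each of mice 481, 528 and 532; the day 2 to day 3 interval is shaded. The 8 genes in the upper 2 rows were higher at day 3 than at day 2 in each mouse, and the 4 in the lowest row were lower.

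Of the 21 genes of precursor fusion that were measured, 14 rose, 4 fell and 3 did not pass, with a median of 0.35. Dcstamp (chr15:39745930-39760938), the multi-pass membrane protein needed for cell-cell fusion, had 405, 459.7 and 418 FPKM at day 3, against 246, 229.5 and 214 FPKM at day 2, a difference of 0.89 ± 0.06. Its partner Ocstamp (chr2:165395450-165400394) had 251, 246 and 259 FPKM at day 3, against 168, 130.5 and 146 FPKM at day 2, a difference of 0.77 ± 0.07. The 2 genes were already high at day 2, and each rose in all 3 mice without overlap. At day 4 Dcstamp stood at 482 to 499 FPKM and Ocstamp at 187 to 211 FPKM, so Dcstamp was above its day 3 range and Ocstamp was below its own.

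Siglec15 and Snx10 had larger differences than either. Siglec15, a sialic-acid-binding receptor that signals through DAP12 and is needed for multinucleated osteoclasts, had 47.8, 49.1 and 64.04 FPKM at day 3, against 19.9, 13.8 and 16.9 FPKM at day 2, a difference of 1.62 ± 0.11. Snx10, a sorting nexin of the endosomal route to the ruffled border, had 568, 599.5 and 575 FPKM at day 3, against 284, 235 and 207 FPKM at day 2, a difference of 1.27 ± 0.08. Both were higher in every day 3 library than in any day 2 library. Atp6v0d2, the proton pump subunit also required for fusion in mice, had 1085, 1153 and 1356 FPKM at day 3, against 714, 636 and 748 FPKM at day 2 (0.77 ± 0.06). Plekhm1, a lysosome-positioning adaptor, rose by 0.60. The low tetraspanin Tspan10 rose by 0.82, with 1.01, 1.19 and 1.14 FPKM at day 3, against 0.265, 0.199 and 0.1201 FPKM at day 2. Its day 2 values were all below 1 FPKM, so it was tested only through day 3, the day where it was higher.

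Smaller rises were seen for membrane and protrusion genes of the fusion list. Sirpa, the receptor for CD47, rose by 0.41 and Cd47 itself by 0.35. Myo10, a myosin of filopodia, rose by 0.38, Anxa5, which binds exposed phosphatidylserine, by 0.36, and Sh3pxd2a, the invadopodia scaffold Tks5, by 0.34. The tetraspanins Tspan5 and Cd9 rose by 0.28 and 0.21; without mouse 528, Cd9 had 0.19 and a limma adjusted p of 0.0538. Not every gene tied to fusion rose. Pdpn, the membrane mucin podoplanin, had 3.19, 2.76 and 2.22 FPKM at day 3, against 5.85, 6.16 and 5.66 FPKM at day 2, a difference of -0.90 ± 0.08. Adam8, a membrane metalloprotease, fell by 0.67, Cd36, the scavenger receptor, by 0.54, and Syncrip, an RNA-binding protein, by 0.40; in each of these 4 the day 3 libraries were all below the day 2 libraries. Cd44 (0.03 ± 0.05), Cd81 (-0.03 ± 0.05) and Itgb5 (0.08 ± 0.07) did not pass, and their days overlapped; without mouse 481 Itgb5 had 0.16 (limma adjusted p = 0.0217).

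The list of bone resorption effectors had the highest median of the lists with 10 or more tested genes. Beside genes that carry out resorption it holds others, such as Calcr, Oscar, Akr1c18, Mt3 and the fusion gene Dcstamp. Of its 27 genes, 25 rose, 1 fell and 1 did not pass, with a median of 0.98 and 12 rises of 1 or more. Their summed FPKM made up 7.26%, 7.44% and 7.86% of all FPKM at day 3, against 3.62%, 3.04% and 3.17% at day 2. Acp5 (chr9:22126727-22135746), which encodes the enzyme stained as TRAP, had 9607, 10725 and 10231 FPKM at day 3, against 4226, 3663 and 3627 FPKM at day 2. Ctsk (chr3:95499210-95509387), the collagen-degrading cathepsin of osteoclasts, had 7791, 7951 and 7983 FPKM at day 3, against 3497, 2832 and 2886 FPKM at day 2. Mmp9, a gelatinase, had 6255, 6526 and 7347 FPKM at day 3, against 2397, 1768 and 2042 FPKM at day 2. These 3 genes rose by 1.41, 1.37 and 1.70, and all 3 were higher again at day 4, where Ctsk stood at 12606 to 13288 FPKM. Ckb, the cytosolic brain-type creatine kinase, had 3985, 4601 and 4201 FPKM at day 3, against 1302, 1172 and 1083 FPKM at day 2, a difference of 1.85 ± 0.08. It was higher in every day 3 library than in any day 2 library. Mmp14, the membrane-type collagenase, rose by 1.09, and Rab38, a small GTPase of lysosome-related organelles, by 1.60. The gene that fell was Ctsl, a general lysosomal cathepsin (336, 343 and 298 FPKM at day 3, against 385, 451 and 376 FPKM at day 2). The list also holds Trap1, a mitochondrial chaperone that shares only a name with the TRAP enzyme; it had 0.18 ± 0.04, and without mouse 528 it no longer passed (0.16, limma adjusted p = 0.0868).

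Acid secretion genes rose with them. Of 18 genes of the vacuolar proton pump, 16 rose and none fell, with a median of 0.63. The subunit Atp6v1e1 had 666, 769 and 650.1 FPKM at day 3, against 343, 335 and 291 FPKM at day 2, a difference of 1.10 ± 0.06, and Atp6v1d and Atp6v1f rose by 0.69 and 0.63. The a subunits, which place the pump in different membranes, did not move alike. Tcirg1, the a3 subunit of the ruffled border, had 757, 799 and 764 FPKM at day 3, against 442, 377 and 353 FPKM at day 2, a difference of 0.99 ± 0.07. Atp6v0a2 had 0.11 ± 0.05 and Atp6v0a1 0.06 ± 0.06, the 2 members that did not pass; without mouse 481 Atp6v0a2 had 0.15 (limma adjusted p = 0.0219). The difference between the subunits was not tested. Clcn7, the chloride-proton exchanger that works beside the pump, rose by 0.80, Car2, the carbonic anhydrase that supplies protons, by 0.65, and the sodium-proton exchanger Nhedc2 (Slc9b2) by 1.15.

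Among 36 lysosomal hydrolases and membrane proteins, 27 rose and 5 fell, with a median of 0.42. Glb1, the lysosomal beta-galactosidase, had 113, 135 and 133 FPKM at day 3, against 55.7, 53.5 and 50.9 FPKM at day 2, a difference of 1.23 ± 0.07. Hexa, which acts on glycolipids, rose by 1.04. Arsb, an arylsulfatase, rose by 1.22. The falls were Ctsl, Ctsc, Scarb2, Lamp1 and Ctss, the last a cathepsin of antigen-presenting cells with 312, 357 and 307 FPKM at day 3, against 447, 526 and 464 FPKM at day 2. Other cathepsins of the list, Ctsa, Ctsb, Ctsd and Ctsz, rose. Many lysosomal genes carry the letters CACGTG, the core read by the MiT and TFE factors. They stood in the 250 bases before the start of 7 of 29 members with a RefSeq promoter (24.1%), against 8.89% of the 7605 tested genes with one and 6.05% of all 27025 promoters; the letters are the same on both strands. The 7 were Ctsd, Ctsl, Gaa, Glb1, Lamp1, Mcoln1 and Naglu, of which Ctsl and Lamp1 fell. Glb1 is shown because it had the smallest adjusted p of the members that hold these letters. Its window is on the plus strand of RefSeq's GRCm38.p6 at chr9:114400828-114401077, with the match in capitals, 48 bases before the start.
Glb1: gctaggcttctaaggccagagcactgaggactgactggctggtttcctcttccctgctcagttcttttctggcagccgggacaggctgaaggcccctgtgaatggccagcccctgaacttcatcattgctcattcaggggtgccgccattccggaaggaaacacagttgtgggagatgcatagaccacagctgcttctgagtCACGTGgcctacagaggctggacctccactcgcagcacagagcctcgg
Among the pump genes 2 of 12 promoters (16.7%) held the same letters. A match here describes the sequence and shows no binding.

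Genes of RANKL signalling moved both ways. Of 27 genes of RANK signalling and osteoclast transcription factors, 8 rose, 6 fell and 13 did not pass, with a median of 0.06. The share called was below the 62.2% of all genes tested, so the list is not set apart by it. Nfatc1, the master transcription factor of osteoclasts, had 153, 134 and 172 FPKM at day 3, against 177, 143 and 182 FPKM at day 2. The days overlapped across mice, although each mouse was lower at day 3, and the difference was -0.13 ± 0.04 (limma adjusted p = 0.0421). That call was lost without any 1 mouse: the difference was -0.08 without mouse 481, -0.14 without 528 and -0.15 without 532, with limma adjusted p-values of 0.111, 0.128 and 0.0651. Without the mouse as a block the limma adjusted p was 0.407. Tnfrsf11a, which encodes RANK, rose by 0.28 and Traf6, its main adaptor, by 0.34. Relb, of the non-canonical NF-kB arm, rose by 0.41, Jund, an AP-1 protein, by 0.51, and Prdm1, the repressor Blimp1, by 0.31. Mitf, a partner of NFATc1 at osteoclast genes, fell by 0.30. Fosl1, the AP-1 protein Fra-1, had the lowest value of the list, with 0.716, 0.709 and 0.507 FPKM at day 3, against 2.14, 1.93 and 2.57 FPKM at day 2 and a difference of -0.96 ± 0.10. It was tested only through day 2, the day where it was higher.

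Of 25 genes of ITAM receptors and calcium signalling, which costimulate RANK, 10 rose and 6 fell, with a median of -0.02. Rcan2, a calcineurin regulator, had 3.44, 3.46 and 3.96 FPKM at day 3, against 0.924, 0.795 and 0.417 FPKM at day 2, a difference of 1.44 ± 0.12. It was tested only through day 3, the day where it was higher. The shared adaptor Tyrobp (DAP12) rose by 0.49, while Trem2, one of the receptors that uses it, had 79.7, 94.5 and 74.1 FPKM at day 3, against 104, 138 and 115 FPKM at day 2 and a difference of -0.52 ± 0.06. Oscar and Siglec15 belong to this list as well. Of 19 repressors of osteoclast differentiation, 8 rose and 7 fell (median 0.0009). Nfkbia, the inhibitor IkB alpha, rose by 0.47 and Dok3, a DAP12-pathway adaptor, by 0.53, while Lilrb4, an inhibitory receptor, fell by 0.39.

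In the podosome, integrin and actin ring list, 20 of 33 genes rose, 1 fell and 12 did not pass, with a median of 0.19. After Itgb3 the largest rise was Myo1d, a membrane-linked myosin, with 143, 137 and 176 FPKM at day 3, against 63.6, 46.04 and 53.2 FPKM at day 2 and a difference of 1.47 ± 0.10. Spp1, the integrin ligand osteopontin, rose by 0.70, Cttn, the podosome protein cortactin, by 0.68, and Src, the kinase needed for the ruffled border, by 0.42. Actr3 was listed at 0 in the KO day 3 library of mouse 528, with 274, 0 and 283 FPKM at day 3, against 259, 263 and 264 FPKM at day 2. An exact 0 for an actin-nucleating gene used by every cell can be a failed estimate, so no fold is read from it; without that mouse the difference was 0.09 (limma adjusted p = 0.327).

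**Figure D3:**
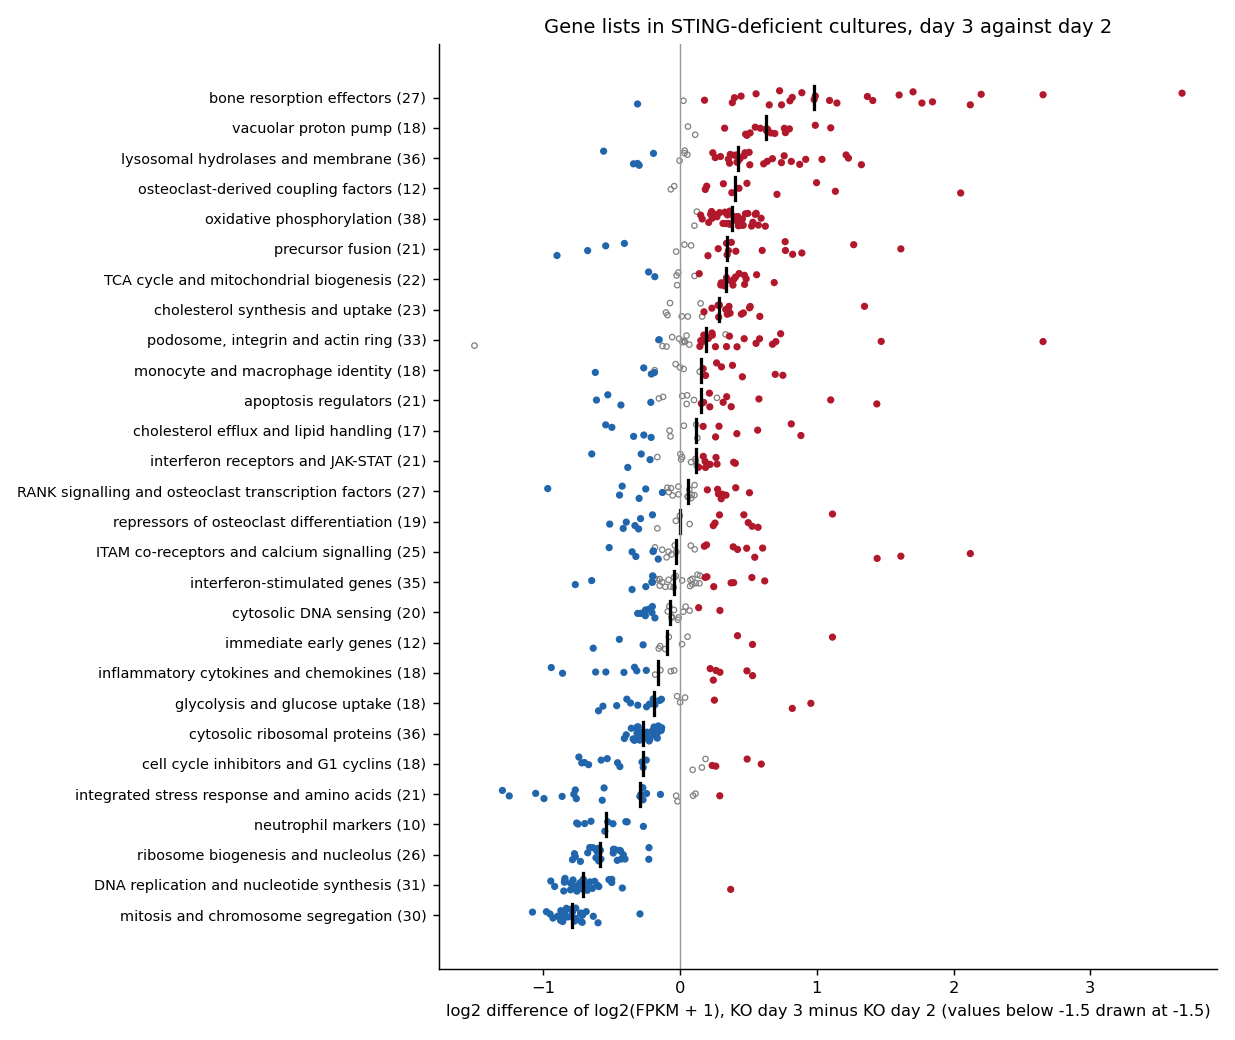
Log2 difference of every tested member (points) of the lists with 10 or more tested genes, KO day 3 minus KO day 2; red points rose, blue points fell, open points did not pass, and the black bar is the list's median. Lists run from bone resorption (median 0.98) at the top to mitosis (-0.79) at the bottom, and the podosome point drawn at -1.5 is Actr3, whose value is lower.

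Mitochondrial genes rose together by modest amounts. Of 38 subunits of oxidative phosphorylation 36 rose and none fell, with a median of 0.38 and a highest value of 0.63. Sdha, the flavoprotein of complex II, had 359, 375 and 355 FPKM at day 3, against 252, 243 and 225 FPKM at day 2, a difference of 0.59 ± 0.05, and Uqcrc2 of complex III rose by 0.56. Of 22 genes of the TCA cycle and mitochondrial biogenesis 16 rose and 2 fell (median 0.34). The pyruvate dehydrogenase subunits Pdha1 and Pdhb rose by 0.49 and 0.47. The transcription factors Nrf1 and Tfam, which regulate mitochondrial gene expression, were the members that fell.

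Glycolysis and glucose uptake ran the other way in number: 12 of 18 genes fell and 3 rose, with a median of -0.19. The glucose transporter Slc2a1 (GLUT1) had 26.2, 25.7 and 25.5 FPKM at day 3, against 34.9, 33.8 and 33.6 FPKM at day 2 (-0.39 ± 0.04), hexokinase 2 (Hk2) fell by 0.56 and the lactate exporter Slc16a3 by 0.46. The rises were Hk1, Pfkm, the muscle-type phosphofructokinase (0.82), and Pdk1, the kinase that inhibits pyruvate dehydrogenase, which had 36.00, 41.04 and 41.7 FPKM at day 3, against 20.1, 20.6 and 18.8 FPKM at day 2 and a difference of 0.96 ± 0.06. Of 23 genes of cholesterol synthesis and uptake 16 rose and none fell (median 0.29). Insig1, which retains the SREBP precursor in the endoplasmic reticulum, had 30.5, 33.5 and 32.8 FPKM at day 3, against 14.1, 12.2 and 10.2 FPKM at day 2, a difference of 1.35 ± 0.09, and Hmgcs1, Sc4mol and Nsdhl, enzymes of the pathway, rose by 0.58, 0.46 and 0.45. Among 17 genes of cholesterol efflux and lipid handling 7 rose and 5 fell; Apoe had 124, 141 and 136 FPKM at day 3, against 74.3, 79.9 and 61.9 FPKM at day 2 (0.89 ± 0.07), and Fasn, the fatty acid synthase, fell by 0.50.

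Every tested gene of mitosis and chromosome segregation fell, 30 of 30, against 30.3% of all genes, with a median of -0.79. Ube2c, the ubiquitin-conjugating enzyme of the anaphase-promoting complex, had 69.6, 73.03 and 71.4 FPKM at day 3, against 125, 157 and 177 FPKM at day 2, a difference of -1.08 ± 0.08. Plk1, a kinase of mitotic entry, had 16.2, 17.4 and 17.3 FPKM at day 3, against 27.9, 35.2 and 37.01 FPKM at day 2 (-0.93 ± 0.06). Ccnb2, a B-type cyclin, had 29.9, 29.8 and 27.3 FPKM at day 3, against 50.4, 56.04 and 55.01 FPKM at day 2 (-0.87 ± 0.06). In all 3 genes every day 3 library was below every day 2 library, and at day 4 Ube2c stood lower still at 37.6 to 46.1 FPKM. Mki67, the proliferation antigen Ki-67, fell by 0.85, Top2a by 0.86, Cdc20 by 0.97 and Aurkb by 0.76. The RNA was not gone at day 3: the list's summed FPKM was 562, 569 and 531 at day 3, against 905, 1092 and 1098 at day 2.

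CCAAT boxes are common in promoters of mitotic genes. The letters CCAAT, on either strand, stood in the 250 bases before the start of 21 of 26 members with a RefSeq promoter (80.8%), against 37.1% of the tested genes with one and 34.5% of all promoters. The letters TTTGAA, the core of the cell cycle homology region, on either strand, stood in 8 of 26 (30.8%), against 10.6% and 16.3%. The promoters of Ube2c, Plk1 and Ccnb2 are shown as the members just described, 5′ to 3′ on the strand of the gene in GRCm38.p6, with each CCAAT, or ATTGG on the other strand, in capitals: Ube2c at chr2:164769679-164769928 (plus) with 6 matches, Plk1 at chr7:122159185-122159434 (plus) with 1, and Ccnb2 at chr9:70421555-70421804 (minus) with 3.
Ube2c: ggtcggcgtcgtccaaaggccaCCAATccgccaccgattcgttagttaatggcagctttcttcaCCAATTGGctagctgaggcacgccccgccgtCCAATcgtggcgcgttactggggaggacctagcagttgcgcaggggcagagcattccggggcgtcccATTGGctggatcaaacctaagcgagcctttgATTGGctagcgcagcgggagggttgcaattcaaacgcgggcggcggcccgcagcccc
Plk1: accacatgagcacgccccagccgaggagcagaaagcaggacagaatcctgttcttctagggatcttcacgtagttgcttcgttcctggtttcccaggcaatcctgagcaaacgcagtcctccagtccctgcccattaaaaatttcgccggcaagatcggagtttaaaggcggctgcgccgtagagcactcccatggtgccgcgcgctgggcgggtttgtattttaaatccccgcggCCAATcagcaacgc
Ccnb2: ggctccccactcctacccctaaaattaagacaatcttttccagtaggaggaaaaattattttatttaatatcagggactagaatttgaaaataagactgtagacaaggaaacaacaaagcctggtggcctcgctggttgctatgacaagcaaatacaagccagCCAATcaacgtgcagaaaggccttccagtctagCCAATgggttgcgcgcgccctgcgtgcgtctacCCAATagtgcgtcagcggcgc
The 3 boxes of Ccnb2 begin 87, 54 and 21 bases before the start, and that of Plk1 14 bases before it. In Ube2c 2 of the 6 matches overlap on opposite strands. These matches describe the letters of the window and no factor's binding.

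Of 31 genes of DNA replication and nucleotide synthesis 30 fell, with a median of -0.71. Rrm2, the small subunit of ribonucleotide reductase, had 37.3, 34.8 and 33.4 FPKM at day 3, against 62.5, 70.6 and 68.1 FPKM at day 2 (-0.91 ± 0.06), and Mcm5, of the replicative helicase, 30.04, 26.9 and 24.5 FPKM at day 3, against 45.3, 57.6 and 56.7 FPKM at day 2 (-0.94 ± 0.11). Prim1, a DNA primase subunit, fell by 0.78. The exception was Chaf1b, a subunit of the histone chaperone CAF-1, which had 30.3, 32.8 and 34.9 FPKM at day 3, against 24.3, 24.3 and 26.3 FPKM at day 2, a difference of 0.37 ± 0.05. Among 18 cell cycle inhibitors and G1 regulators 11 fell and 4 rose (median -0.27). Cyclins D1 and E1 (Ccnd1, Ccne1) fell by 0.72 and 0.74, and so did the inhibitor Cdkn1a (p21), by 0.57. The inhibitors Cdkn1b (p27) and Cdkn2b (p15) rose: Cdkn1b had 22.4, 25.1 and 25.3 FPKM at day 3, against 17.4, 16.7 and 16.7 FPKM at day 2 (0.49 ± 0.06) and Cdkn2b 21.4, 22.2 and 25.2 FPKM at day 3, against 15.6, 13.7 and 15.2 FPKM at day 2 (0.60 ± 0.06).

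The 2 deepest of the 12 largest falls, Phgdh and Psat1, belong to amino acid supply. Of 21 genes of the integrated stress response and amino acids 16 fell and 1 rose, with a median of -0.29. The serine synthesis pathway fell along its length. Phgdh, its first enzyme, had 2.18, 1.84 and 1.704 FPKM at day 3, against 4.701, 6.297 and 7.703 FPKM at day 2, a difference of -1.30 ± 0.14. Psat1 (chr19:15905123-15925059), the second, had 33.99, 28.3 and 26.7 FPKM at day 3, against 66.6, 70.9 and 76.9 FPKM at day 2, a difference of -1.25 ± 0.09 (limma adjusted p = 8.89e-05). Psph, the last, had 11.7, 12.5 and 10.7 FPKM at day 3, against 17.95, 16.3 and 18.2 FPKM at day 2, a difference of -0.55 ± 0.07. At day 4 Phgdh and Psat1 were lower again, at 0.113 to 0.4595 FPKM and 10.3 to 18.99 FPKM. The mitochondrial folate enzymes that use serine, Shmt2 and Mthfd2, fell by 0.86 and 0.99, the amino acid transporter Slc7a5 by 1.05, and Chac1, a glutathione-degrading enzyme, by 0.76. Asns, asparagine synthetase, had 52.1, 51.1 and 53.03 FPKM at day 3, against 85.4, 85.3 and 99.3 FPKM at day 2 (-0.77 ± 0.05).

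Asns is a known target of the transcription factor ATF4. The letters TGATGNAA, where N is any base, on either strand, stood in 4 of 19 promoters of the list (21.1%), against 2.04% of the tested genes and 3.53% of all promoters. The 4 were Asns, Atf3, Chac1 and Herpud1, of which Herpud1 did not pass. The Asns promoter (GRCm38.p6, chr6:7693210-7693459, minus strand) is shown with its match in capitals, 23 bases before the start.
Asns: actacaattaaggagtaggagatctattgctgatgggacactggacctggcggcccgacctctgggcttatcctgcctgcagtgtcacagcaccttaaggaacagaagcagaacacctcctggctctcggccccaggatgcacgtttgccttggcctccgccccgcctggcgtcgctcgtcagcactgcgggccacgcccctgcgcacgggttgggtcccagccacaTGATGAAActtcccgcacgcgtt
As above, the match is a description of the sequence.

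Both lists of ribosome genes fell in full. All 26 tested genes of ribosome biogenesis fell, with a median of -0.58: Nop56, of the box C/D snoRNP, had 38.3, 37.1 and 32.9 FPKM at day 3, against 57.7, 63.5 and 59.6 FPKM at day 2 (-0.73 ± 0.06), Mybbp1a, a nucleolar regulator, fell by 0.78 and Rrp9 by 0.64. All 36 tested cytosolic ribosomal protein genes fell as well, by less, with a median of -0.27 and a deepest value of -0.40. Rpl8 had 1309, 1407 and 1098 FPKM at day 3, against 1621, 1825 and 1542 FPKM at day 2 (-0.39 ± 0.05). The other large falls lay outside these lists. Hmox1, haem oxygenase 1, had 108, 140.1 and 128 FPKM at day 3, against 217, 264 and 281 FPKM at day 2 (-1.01 ± 0.05). Angptl2, a secreted angiopoietin-like protein, fell by 1.20, Acsbg1, an acyl-CoA synthetase, by 1.13, and Ltbp1, which binds latent TGF-beta, by 1.04. Fignl1, an AAA ATPase of DNA repair, fell by 1.01, Serpinb1a, a protease inhibitor, by 0.99, and Slc6a4, the serotonin transporter, by 0.98.

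Of genes for signals from osteoclasts to bone-forming cells, 10 of 12 coupling factors rose and none fell, with a median of 0.41. Cthrc1, a secreted protein that promotes osteoblast activity, had 2.94, 3.69 and 4.15 FPKM at day 3, against 0.237, 0.0386 and 0.0388 FPKM at day 2, a difference of 2.05 ± 0.12. It was tested only through day 3, the day where it was higher. Efnb2, the ligand ephrin B2, had 6.903, 6.48 and 6.398 FPKM at day 3, against 3.32, 2.17 and 1.999 FPKM at day 2 (1.14 ± 0.09), Sphk1, which makes sphingosine 1-phosphate, rose by 0.999, and Pdgfb by 0.71. Among 18 inflammatory cytokines, chemokines and receptors 6 rose and 8 fell (median -0.16): Ccr1 rose by 0.53 and Tgfb1 by 0.49, while Osm, oncostatin M, fell by 0.94 and Il10 by 0.86.

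Interferon-stimulated genes moved both ways. Of the 54 of this list that the deposited table holds, 35 reached 1 FPKM at either day. Of these, 7 rose, 8 fell and 20 did not pass, a share called below the 62.2% of all genes tested. The median was -0.04, and the same 35 had a median of 0.02 in WT. Genes below 1 FPKM, which these values leave out, include Ifit1, Ifit3, Irf7, Mx1 and Rsad2. Ifitm3, a membrane-embedded antiviral protein that blocks viral fusion, had 230.0, 297 and 267 FPKM at day 3, against 345, 511 and 508 FPKM at day 2 (-0.76 ± 0.07), and Rtp4 fell by 0.64. Tap1, the peptide transporter of antigen presentation, had 21.5, 25.1 and 23.4 FPKM at day 3, against 15.1, 17.3 and 15.3 FPKM at day 2 (0.53 ± 0.05). Among 21 interferon receptors and JAK-STAT genes 9 rose and 4 fell (median 0.12), with Ifngr2, a chain of the interferon gamma receptor, at 0.41 and Irf5 at -0.38. Of 20 genes of cytosolic DNA sensing 2 rose and 8 fell (median -0.07), and the falls were small: Mre11a had -0.31 ± 0.06, Polr3a -0.29 ± 0.06 and Aim2 -0.25 ± 0.05.

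Apoptosis regulators were mixed, with 10 of 21 up and 4 down (median 0.16). Pmaip1, the BH3-only protein Noxa, had 20.9, 26.8 and 25.6 FPKM at day 3, against 8.53, 8.45 and 8.01 FPKM at day 2 (1.44 ± 0.08), and Bcl2a1b, a survival protein with near-identical copies whose value is uncertain, rose by 1.10, while the death effectors Bax and Bid fell by 0.53 and 0.61. Of 12 immediate early genes 3 rose and 3 fell (median -0.09), and Ier3 fell by 0.63. Among 5 metallothionein-related genes 2 rose and 1 fell: Mt3 had 1207, 1665 and 1362 FPKM at day 3, against 442, 396 and 392 FPKM at day 2 (1.77 ± 0.10), the zinc exporter Slc30a1 rose by 0.62, and Mt2 fell by 0.57. Mt3 and Mt2 thus moved in opposite directions in every mouse.

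Macrophage identity did not fall as a whole. Of 26 genes measured, 18 were tested: 8 rose, 4 fell and 6 did not pass, a share called near that of all genes. The median was 0.16, and single genes ran from -0.62 to 0.75. Csf1r, the receptor for mCSF, had 535, 544 and 580.4 FPKM at day 3, against 360.0, 301 and 325 FPKM at day 2 (0.75 ± 0.06), Clec4a1 rose by 0.70 and Vcan by 0.46. Of 6 MHC class II presentation genes 4 rose and none fell (median 0.22), a share near that of all genes called. Among them H2-DMb1 had 0.27 ± 0.06, Cd74 0.27 ± 0.05 and H2-Aa 0.23 ± 0.06. Without the mouse as a block Cd74 and H2-Aa did not pass (limma adjusted p = 0.0791 and 0.246), and H2-Aa did not pass without mouse 528 or 532 either (0.22 and 0.20, limma adjusted p = 0.0722 and 0.0599). The summed FPKM of the 26 macrophage genes was 3674 to 4143 at day 3, against 3288 to 3514 at day 2, without overlap, while their mean log2 level, in which each gene counts equally, was 3.38 to 3.54 at day 3 and 3.28 to 3.48 at day 2, and overlapped.

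Markers of other cells were measured beside these, and some moved with the day. All 10 tested neutrophil genes, of 14 in the table, fell (median -0.54). Their summed FPKM was 181, 112 and 114 at day 3, against 217, 223 and 198 at day 2. S100a8, a calprotectin subunit, had 50.2, 29.8 and 36.5 FPKM at day 3, against 66.3, 67.5 and 59.2 FPKM at day 2 (-0.74 ± 0.12), and Ngp, a neutrophil granule gene, 25.7, 18.3 and 19.1 FPKM at day 3, against 29.3, 28.3 and 33.7 FPKM at day 2 (-0.53 ± 0.10). The part of neutrophil RNA in the other falls was not tested. None of the 11 B cell genes and none of the 6 mast cell genes in the table reached 1 FPKM; the B cell list summed to 0.364 to 0.489 FPKM at day 3 and 0.272 to 0.389 FPKM at day 2. The 3 tested dendritic cell genes, Cd83, Itgax and Zbtb46, rose by 1.11, 0.77 and 0.58; the list of 10 summed to 10.2 to 12.0 FPKM at day 3, against 5.00 to 5.82 FPKM at day 2, which is small beside Ctsk. Single tested genes of T cell (Il7r, -0.75), megakaryocyte (Pf4, -0.59) and stromal lists (Dcn, -0.52) fell, and the 2 endothelial genes went 1 each way, Eng at -0.50 and Vwf at 0.26. Without mouse 532 Dcn had -0.35 and Vwf 0.16, with limma adjusted p-values of 0.0619 and 0.136. Without the mouse as a block Pf4, Dcn and Vwf did not pass (limma adjusted p = 0.0642, 0.189 and 0.0868).

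The 3 mice took the same steps at different sizes. Mouse 481 moved least: 94 genes rose and 10 fell at least 2-fold within it, against 183 and 27 in mouse 528 and 224 and 62 in mouse 532. Its median absolute change was 0.173, against 0.227 in mouse 528 and 0.250 in mouse 532. In the genes with the largest changes, the mice differed more at day 2 than at day 3. The mean log2 level of the 12 genes with the largest rises was 5.33, 5.49 and 5.51 at day 3, against 3.41, 2.95 and 2.89 at day 2, for mice 481, 528 and 532. For the 12 largest falls it was 3.74, 3.64 and 3.58 at day 3, against 4.59, 4.77 and 4.85 at day 2. Mouse 481 was thus the highest of the mice in the rising genes and the lowest in the falling genes at day 2, and the mice were closer together at day 3. These genes were chosen for their change in the same mice, so the values describe them and are no test. In the neutrophil list mouse 481 instead stood apart at day 3, with a summed FPKM of 181, 112 and 114 at day 3, against 217, 223 and 198 at day 2. By list, the median of the resorption genes was 0.77, 0.999 and 1.11 in mice 481, 528 and 532, and that of mitosis genes -0.61, -0.84 and -0.91. Such a spread was not particular to KO. At WT day 2 the resorption list had a mean log2 level of 7.44 in mouse 480, against 7.19 and 7.13 in mice 529 and 531. The mitosis list summed to 952 FPKM in mouse 480, against 1175 and 1232 FPKM.

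**Figure D4:**
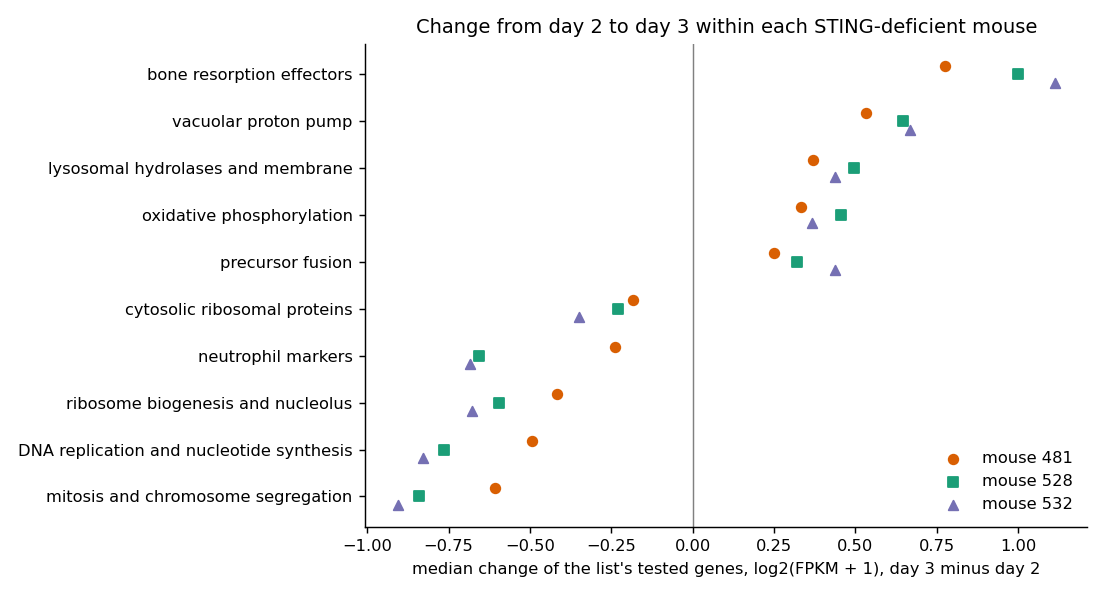
Median change of 10 lists within each KO mouse, in log2(FPKM + 1), day 3 minus day 2; each point is 1 mouse. Mouse 481 (circles) lies nearest to 0 in each of the 10 lists shown, and the 3 mice are on the same side of 0 in each.

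WT cultures went through the same interval with much the same changes. In WT, 4108 of 9422 genes (43.6%) passed, 2090 up (22.2%) and 2018 down (21.4%); 163 rose (1.73%) and 27 fell (0.287%) by 1 or more, or 299 and 72 with a pseudocount of 0.1; without mouse 480 the counts were 1339 and 1256. The difference between the KO step and the WT step was tested for 9470 genes, and limma called 0 (0.0%), with a smallest adjusted p of 0.97. At an unadjusted limma p under 0.05 there were 152 genes (1.61%), fewer than that threshold alone would give if no gene differed. With 1 mouse left out, that number ran from 71 (without mouse 528) to 697 (without mouse 529). Across 9360 genes tested in both, Pearson's r between the steps was 0.89, which is across genes and not across independent replicates. Of the 164 KO genes that moved by 1 or more, 162 had the same sign in WT. The 95% interval of the difference, taken for each gene alone without adjustment, had a median half-width of 0.243. For 1 gene in 10 it was above 0.352. Adjustment over 9470 genes asks for larger differences than these, so genes with differences above them can also go uncalled. The absolute difference was 1 or more for 15 genes, and none of these was called.

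The genes nearest to a difference are therefore a description. Cox6a2, a muscle-type subunit of cytochrome oxidase, had 3.68, 2.82 and 2.703 FPKM at day 3, against 1.08, 0.326 and 0.9000 FPKM at day 2 in KO. It had 2.53, 1.801 and 1.31 FPKM at WT day 3, against 1.37, 1.48 and 0.576 FPKM at WT day 2, and the KO step exceeded the WT step by 0.79 ± 0.17 SE (limma adjusted p = 0.97). Map2k6, a p38 kinase kinase, had steps of 0.55 in KO and 0.13 in WT, and Mndal, an interferon-inducible HIN-200 gene, of -0.65 and -0.22. Rnd2 moved in opposite directions, by 0.27 in KO and -0.33 in WT, in all 3 mice of each genotype. The KO mice had 0.35, 0.42 and 0.05, so mouse 532 barely moved, and the WT mice had -0.16, -0.33 and -0.51. Without mouse 528 the KO value of Rnd2 was 0.20 (limma adjusted p = 0.202), and without the mouse as a block the limma adjusted p was 0.317. Some key genes of the KO step, picked from those above, were close in WT: Calcr 3.67 in KO and 3.85 in WT, Dcstamp 0.89 and 0.85, Ctsk 1.37 and 1.33, Plk1 -0.93 and -0.87, Psat1 -1.25 and -1.31. List medians were close for mitosis (-0.79 in KO and -0.75 in WT) and precursor fusion (0.35 and 0.30). They were less equal for cytosolic ribosomal proteins (-0.27 and -0.37) and the integrated stress response (-0.29 and -0.45). These gaps between medians were not tested.

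**Figure D5:**
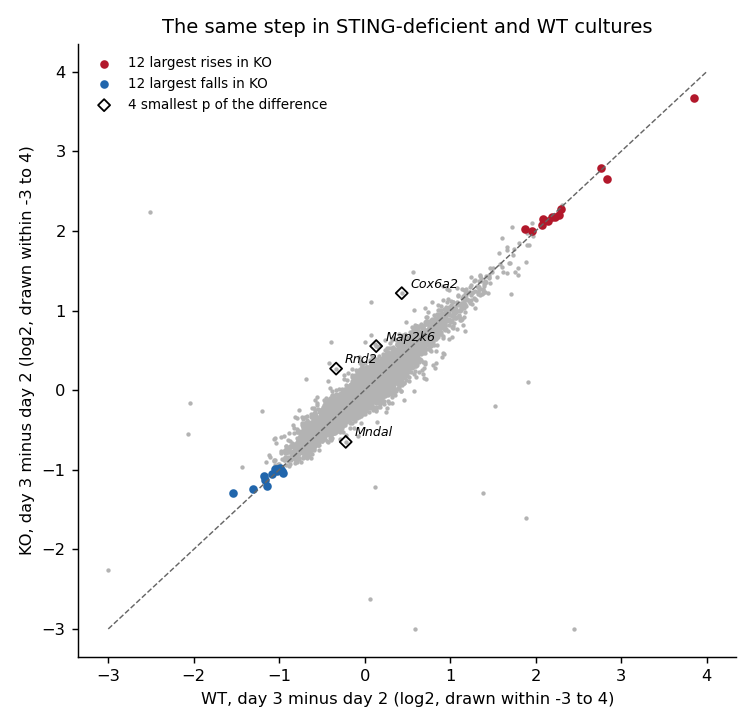
Log2 difference day 3 minus day 2 in KO (vertical) against WT (horizontal), 1 point per gene for 9360 genes, with the line of equal change dashed and points beyond the axes drawn at the edge. Points follow that line (r = 0.89); the 12 largest KO rises and falls lie near it, and the 4 genes with the smallest p of the difference are marked.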

How the data were processed

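The authors deposited 1 table of FPKM for all 24 libraries; per the submitters' processing notes they used HISAT2 2.0.5, Cufflinks 2.2.1 and Cuffdiff with mm10. Its 10721 genes are a selection whose rule is not given, and strandedness and depth are unknown. Each of the 24 columns matched 1 sample, and 0 were unused. Log2(FPKM + 1) was tested with limma 3.58.1 in R 4.3.3 (mean-variance trend, mouse as a block, 2 residual degrees of freedom plus 5.18 prior), two-sided, with Benjamini-Hochberg adjustment over all genes with a mean of 1 FPKM or more in either group. The fit was tested on simulated data. The same animal gave both days, which pairs the libraries; deviations of same-mouse libraries correlated at -0.09, 0.35 and 0.33 across genes in KO.

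The members, the 37 gene lists and the rules were chosen with earlier results of these data known. Named by rule were Sting1, the 12 largest rises and falls without overlap and with 5 FPKM or more at the higher day, all fusion genes, 3 genes per other list and 4 of the genotype difference; the rest (such as Acp5, Mmp9, Tcirg1, Nfatc1, Psph, Chaf1b and histone genes) were chosen after their values were seen. Some genes that the rule names are not reported here. No count model was used, since FPKM are not counts. Positions are from RefSeq (GRCm38.p6), which 99.3% of genes had. For 88.3% of 7503 promoters, bases just after the start were found in a GENCODE transcript of the same gene and strand. That checks the orientation and not the exact start.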

Additional observations from a re-analysis of the deposited data

How the results depend on the processing

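With a pseudocount of 0.1 the rises and falls of 1 or more were 268 and 36 in KO, and 299 and 72 in WT. A fit over all 24 samples with no replicate block gave 1723 rises and 1400 falls in KO, under which 31 named genes, Asns, Ctsl, Cd36, S100a8 and Prdm1 among them, no longer passed and the other 155 stayed on the same side of the threshold. Without the replicate block, over the 6 KO libraries alone, there were 2255 rises and 2018 falls, so the pairing by mouse raised the counts by less than 1.5 times. It changed the calls of Nfatc1, Rnd2, Cd74, H2-Aa, Pf4, Dcn and Vwf among genes named, none of which passed without the block (limma adjusted p from 0.0642 for Pf4 to 0.407 for Nfatc1). Leaving out each mouse in turn gave 2282 to 3203 rises and 2050 to 3058 falls in KO, 5 to 36 falls of 1 or more, and in WT 1339 to 2387 rises, 1256 to 2205 falls and 15 to 60 falls of 1 or more. In the difference between the genotypes, leaving out a mouse gave 0 to 1 gene up and 0 to 1 gene down, both of 1 or more. Leaving out the 19 tested genes listed at 0 in any KO library, an alternative chosen after seeing the data, gave 3029 rises and 2873 falls. Some values changed sign. Over the leave-one-out fits Sting1 (Tmem173) ran from -0.021 to 0.068, Itgb5 from -0.0049 to 0.165, Atp6v0a1 from -0.012 to 0.129, Actr3 from -3.98 to 0.092 and the median of ITAM genes from -0.048 to 0.021. The median was 0.077 with no filter, against -0.04, for interferon-stimulated genes, and 0.26 with a filter at 5 FPKM, against -0.10, for metallothioneins. The cause was not tested. Unknown depth and 3 mice limit what small differences can be read.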

Other observations

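Histone genes, seen after the tests were run, rose while genes of DNA replication fell. All 13 tested canonical histone cluster genes rose, of 18 in the table, 8 of them by 1 or more, with a median of 1.28 in KO and 1.23 in WT. Hist1h1c, a linker histone, had 81.02, 78.9 and 72.7 FPKM at day 3, against 26.7, 20.7 and 19.5 FPKM at day 2 (1.76 ± 0.07). Hist1h2bc had 144, 185 and 170.3 FPKM at day 3, against 57.6, 53.6 and 58.1 FPKM at day 2 (1.54 ± 0.08), and Hist2h2be rose by 1.24. Hist2h3c1 and Hist2h3c2 rose by 2.16 and 1.91, and their copies are near-identical, so the split of reads between them is uncertain.

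Of the 11 called falls of 1 or more, 2 are small RNA genes. Snord37 was listed at 0 in all 3 KO day 3 libraries, against 2823, 0 and 2775 FPKM at day 2, and Mir1945 at 0 in all 3, against 74.7, 0 and 220.4 FPKM at day 2. Without mouse 532 neither passed (limma adjusted p = 0.0597 for Snord37 and 0.06 for Mir1945). Each is also listed at 0 in the day 2 library of mouse 528, so no fold is given.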
